A study of Mus musculus with 4 samples.

Results

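Cdkn3 and the 7 genes for the cyclin-dependent kinase (CDK) inhibitors were followed in crypts of the mouse intestine with and without CREPT. The 7 inhibitor genes were Cdkn1a, Cdkn1b and Cdkn1c of the Cip/Kip family and Cdkn2a, Cdkn2b, Cdkn2c and Cdkn2d of the INK4 family. Cdkn3 was selected on its log2 fold change in this same comparison, in which its counts fell, and the inhibitor genes were added by name. Its change is therefore given as a description, and no p-value is printed for any of the 8 genes. Where members past the call threshold are counted, the count describes the choice and tests nothing. All 8 were present among the 53845 genes and loci counted, and 7 of them passed the low-count filter that left 17504 genes. Cdkn2a did not pass.

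The study deleted CREPT, a protein encoded by Rprd1b that binds RNA polymerase II, from the intestinal epithelium and asked how gene expression in uninjured crypts changes. WT crypts came from C57BL/6 mice labelled wild type, and Vil-CREPTKO crypts came from C57BL/6 mice with both Rprd1b alleles floxed (CREPTfl/fl) and a Cre recombinase driven by the villin promoter. This promoter is active in the epithelium from gut development onward, so other cells of the preparation keep the gene. Each group had 2 libraries, described by the study as biological replicates, and the study used mice of both sexes at 6 to 8 weeks. Its breeding paired Cre-carrying CREPTfl/fl mice with CREPTfl/fl mice, and whether the WT samples carried floxed alleles is not given in the sources used here, nor is a pool size. The crypts were freed from the gut wall in EDTA before total RNA was extracted and sequenced.

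Total counts were 47241049 to 49369315 per library. Rprd1b was at 60.5 and 61.6 CPM (counts scaled to a common library size) in WT and at 26.3 and 29.0 CPM in Vil-CREPTKO, which gave a log2 change of -1.14 ± 0.12 (SE), with an adjusted p of 0.0041 in edgeR. The floxed exon is 1 of several, so counts over the whole gene can include transcripts without it, and the exons share 370 bp with Tgm2 on the opposite strand. The epithelial markers Epcam, Cdh1, Vil1, Krt8 and Krt20 summed to 7005 to 8396 CPM, whereas smooth muscle markers summed to 0.046 to 0.244 CPM and endothelial markers to 1.73 to 2.95 CPM. WT replicate 2 carried Xist at 863 CPM and no counts over 4 Y-linked genes, and the other 3 libraries carried Y-linked counts and almost no Xist, so that sex differed within WT. Mitochondrial genes took 10.2% of the counts in Vil-CREPTKO replicate 1 and 6.75% to 7.62% in the other libraries. These are bulk samples, in which fewer cells of a type and less RNA per cell cannot be told apart.

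CDKs drive the cell cycle when a cyclin binds them and their activating threonine is phosphorylated. Proteins of the Cip/Kip family bind CDK and cyclin together and block mainly CDK2, while INK4 proteins bind CDK4 and CDK6 and keep D-type cyclins away from them. Cdkn3 differs from both: it encodes a dual-specificity phosphatase that removes the activating phosphate from CDK2 once the cyclin has left, and its mRNA is known to be highest late in the cycle. In the intestine, cells divide in the crypt and leave the cycle as they move toward the villus, where p21, the product of Cdkn1a, is a known mark of cells that stopped dividing.

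Sequences were printed for the genes on which the description turns. For Cdkn3 these are the primer pair that the study designed for its quantitative PCR, and the bases in front of the start site from RefSeq (GRCm38.p6). For Cdkn1a it is the stretch before the first annotated start site, because the p53 targets below are compared with it. Promoters were found in that table for Cdkn3 and 6 of the inhibitor genes. Capitals in the Cdkn3 promoter mark the CCAAT box, searched on both strands, and capitals in the Cdkn1a promoter mark the p53 motif.
Cdkn3 forward primer: accctgatacattgttacggagg
Cdkn3 reverse primer: ctcgaaggctgtctatggctt
Cdkn3 promoter, plus strand, chr14:46760291-46760540: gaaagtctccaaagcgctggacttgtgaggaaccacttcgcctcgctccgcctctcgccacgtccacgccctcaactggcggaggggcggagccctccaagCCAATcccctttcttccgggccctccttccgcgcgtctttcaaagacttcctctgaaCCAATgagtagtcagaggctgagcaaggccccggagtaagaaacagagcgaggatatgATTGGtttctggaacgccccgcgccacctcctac
Cdkn1a promoter, plus strand, chr17:29090729-29090975: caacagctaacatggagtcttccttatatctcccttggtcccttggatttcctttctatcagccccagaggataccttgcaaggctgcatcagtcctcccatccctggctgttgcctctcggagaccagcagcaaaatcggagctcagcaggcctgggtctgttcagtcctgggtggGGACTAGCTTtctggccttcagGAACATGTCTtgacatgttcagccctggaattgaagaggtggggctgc

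The Cdkn3 forward primer crosses the junction of exons 5 and 6 of transcript Cdkn3-201 and the reverse primer lies in exon 7 (GRCm38 chromosome 14, 46769881 to 46769901), giving a product of 109 bp, or 112 bp in Cdkn3-202. The remaining annotated transcripts, Cdkn3-203 and Cdkn3-204, do not hold both primers. By quantitative PCR the study reported lower values in Vil-CREPTKO for Cdkn3, Cdkn1c and other genes that it called cell cycle promoting. In the promoter windows, 300 bases around the start, Cdkn3 had 4 matches to CCAAT, 1 match to TTTGAA (the CHR element, a motif found in many genes of the late cell cycle) and 4 matches to the GC box GGGCGG. Over 32851 such windows, 37.4% held at least 1 CCAAT, 3.37% held 3 or more, 17.9% held TTTGAA and 35.7% held GGGCGG. In 10.7% of the windows GGGCGG was found 3 or more times. Cdkn2b also had 1 match to TTTGAA. Cdkn1b had 3 CCAAT matches, and Cdkn2d and the second annotated starts of Cdkn2a and Cdkn2c had 1 each. The window of the first annotated Cdkn1a start had 2 p53 motifs and none of the other letters searched. The window of its second annotated start, 2793 bp from the gene start, had 0 p53 motifs and 2 matches to GGGCGG. Cdkn2d had 1 p53 motif, and 8.36% of all windows held at least 1. Neither TTTCGCGC nor TTTGGCGC, the letters searched for E2F, was in any of these windows, and 0.813% of all windows held one of them. These matches describe the letters only.

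Cdkn3 (ENSMUSG00000037628, GRCm38 chromosome 14, 46760541 to 46771669, plus strand, protein coding) had 557 and 581 counts in the WT libraries and 46 and 66 counts in the Vil-CREPTKO libraries. On the CPM scale its levels were 10.9 and 11.8 in WT against 1.06 and 1.34 in Vil-CREPTKO. Both Vil-CREPTKO libraries lay far below both WT libraries, and the libraries of a group lay close together. The mean was 11.4 ± 0.632 CPM in WT and 1.2 ± 0.202 CPM in Vil-CREPTKO (SD, n = 2 libraries each), so that 10.6% of the WT level was left. The log2 fold change was -3.23 (SE 0.24, 95% interval -3.78 to -2.69). Taken library against library, the log2 ratio ran from -3.48 to -3.02, while the libraries of 1 group differed by 0.11 (WT) and 0.34 (Vil-CREPTKO). Leaving out any 1 library gave log2 fold changes of -3.42 to -3.08. By size of decrease Cdkn3 stood in place 28 among all 17504 tested genes. It stood in place 4 among the 12171 genes whose average log2 CPM reached 1. These places rest on the log2 fold change that selected it.

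No transcript of Cdkn3 shared 100 bp or more at 90% identity or above with another gene, and its exons overlap no other annotated gene, so no near copy was found that could have taken its reads. The same held for Cdkn1b, Cdkn2a, Cdkn2b, Cdkn2c and Cdkn2d. Transcripts Cdkn1a-203 and Cdkn1a-205 share a stretch of this kind with 1376 other genes, at most 262 bp long, and Cdkn1c shares 625 exonic bp with the antisense gene Gm44732, which had 0 counts in all 4 libraries.

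**Figure D1:**
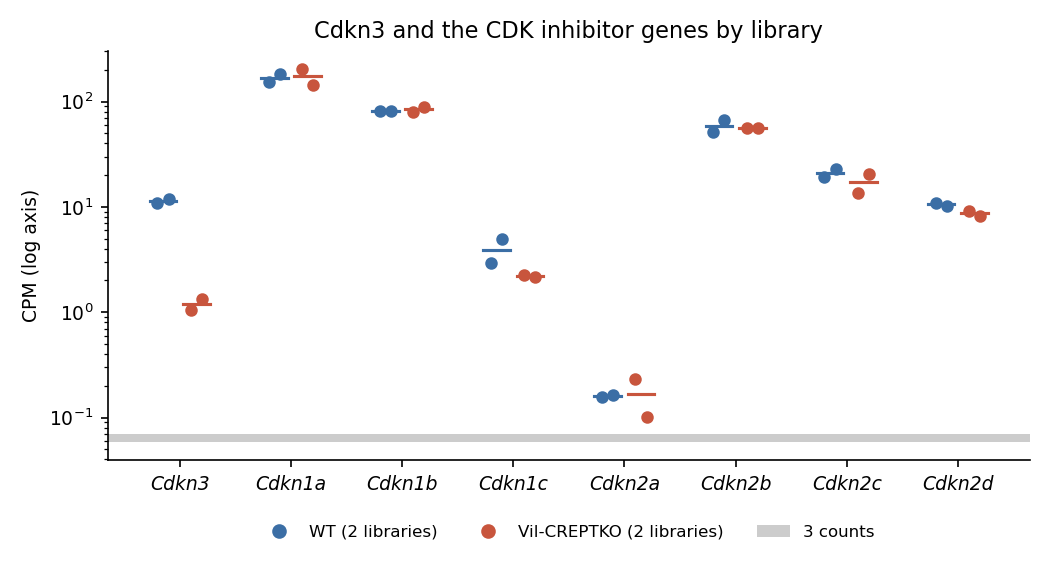
CPM (log axis) of the 8 genes in each library, with WT in blue, Vil-CREPTKO in red, group means as bars and the level of 3 counts as a grey band. Cdkn3 sits at 10.9 and 11.8 CPM in WT and at 1.06 and 1.34 CPM in Vil-CREPTKO, whereas the Vil-CREPTKO means of the other genes are at 56.6% (Cdkn1c) to 104% of WT and Cdkn2a lies close to the grey band.

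Cdkn3 mRNA belongs with the late cell cycle genes, so it was set beside them within each library. Cdkn3 amounted to 3.55% and 3.56% of the CPM of Mki67, the gene for the proliferation antigen Ki67, in the WT libraries, and to 0.389% and 0.390% in the Vil-CREPTKO libraries. As a percent of the sum of 25 G2/M genes, the values were 0.707% and 0.735% in WT against 0.0829% and 0.0797% in Vil-CREPTKO. These ratios are not corrected for transcript length and serve only to compare libraries. They were nearly equal within a group, and Mki67 itself ranged from 272 to 345 CPM in Vil-CREPTKO. The Vil-CREPTKO ratios rest on 46 and 66 Cdkn3 counts, too few to resolve so small a difference. Because Cdkn3 was chosen on its decrease in this contrast, the difference of the ratios between the groups tests nothing.

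In the Cip/Kip family, Cdkn1a and Cdkn1b kept overlapping levels and Cdkn1c was lower in Vil-CREPTKO by an amount that depended on 1 WT library. Cdkn1a (ENSMUSG00000023067, chromosome 17, 29090976 to 29100727), which encodes p21, the inhibitor induced by p53, was at 153 and 182 CPM in WT and at 202 and 144 CPM in Vil-CREPTKO. The Vil-CREPTKO libraries were the highest and the lowest of the 4, and the log2 fold change was 0.05 (SE 0.19, 95% interval -0.37 to 0.47). Without Vil-CREPTKO replicate 1 it was -0.22, and without Vil-CREPTKO replicate 2 it was 0.28. The enterocyte markers Alpi, Apoa1, Apoa4, Fabp1, Fabp2 and Sis summed to 11414 and 14849 CPM in WT and to 20925 and 12346 CPM in Vil-CREPTKO, so that the same 2 libraries, Vil-CREPTKO replicate 1 and WT replicate 2, were highest in both measures. The lowest library differed, being Vil-CREPTKO replicate 2 for Cdkn1a and WT replicate 1 for the markers. The part of these markers in the Cdkn1a level was not tested.

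Cdkn1b (ENSMUSG00000003031, chromosome 6, 134920401 to 134925513) encodes p27, which holds CDK2 in check in resting cells. Its levels were 82.2 and 80.8 CPM in WT and 80.2 and 89.1 CPM in Vil-CREPTKO. The groups overlapped, and the log2 fold change of 0.05 (SE 0.12, 95% interval -0.21 to 0.32) had the narrowest interval of the 7 genes.

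Cdkn1c (ENSMUSG00000037664, chromosome 7, 143458339 to 143461050, minus strand) encodes p57, the imprinted member of the family, expressed from the maternal allele. It had 150 and 243 counts in WT against 99 and 107 in Vil-CREPTKO, or 2.94 and 4.94 CPM against 2.28 and 2.18 CPM. Both Vil-CREPTKO libraries were below both WT libraries, but the WT libraries stood 0.75 apart on the log2 scale. The log2 fold change was -0.82 (SE 0.32, 95% interval -1.56 to -0.08). Against WT replicate 1 the log2 ratios were -0.37 and -0.43, and against WT replicate 2 they were -1.12 and -1.18. Without WT replicate 2, the library that differed from the others in sex, the log2 fold change was -0.40 (SE 0.39). The part of sex in this value was not tested. Tuft cell markers (Dclk1, Trpm5, Avil and Pou2f3), a list that also separated the groups, summed to 151 and 192 CPM in WT and to 91.2 and 89.9 CPM in Vil-CREPTKO. Whether they bear on Cdkn1c was not tested.

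In the INK4 family no gene reached the size of the Cdkn3 decrease, and Cdkn2a was near the limit of detection. Cdkn2a (ENSMUSG00000044303, chromosome 4, 89274471 to 89294653, minus strand) is the source of p16Ink4a and p19Arf, which the count of the whole gene cannot separate. It had 8 counts in each WT library and 10 and 5 counts in the Vil-CREPTKO libraries, about 0.157 and 0.163 CPM against 0.230 and 0.102 CPM. A count of 3 corresponds to 0.0588 to 0.069 CPM, and a difference was not detectable at this depth.

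Cdkn2b (ENSMUSG00000073802, chromosome 4, 89306299 to 89311039, minus strand) encodes p15Ink4b and lies next to Cdkn2a, yet its counts were 2628 and 3293 in WT against 2428 and 2764 in Vil-CREPTKO. Its levels were 51.5 and 66.9 CPM in WT and 55.9 and 56.3 CPM in Vil-CREPTKO, with the Vil-CREPTKO libraries between the WT libraries. The log2 fold change was -0.08 (SE 0.14, 95% interval -0.41 to 0.25), and it was 0.12 without WT replicate 2.

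Cdkn2c (ENSMUSG00000028551, chromosome 4, 109660876 to 109667189, minus strand), the gene for p18Ink4c, was at 19.2 and 23.1 CPM in WT and at 13.6 and 20.5 CPM in Vil-CREPTKO. The groups overlapped, because only Vil-CREPTKO replicate 1 was below both WT libraries. The log2 fold change was -0.31 (SE 0.21, 95% interval -0.79 to 0.17), and it was -0.05 when Vil-CREPTKO replicate 1 was left out and -0.63 when replicate 2 was. The crypt base markers Olfm4, Lgr5 and Lyz1 summed to 4698 and 4026 CPM in WT and to 3632 and 5680 CPM in Vil-CREPTKO, and Vil-CREPTKO replicate 1 was lowest in both measures. The highest library differed, being WT replicate 2 for Cdkn2c and Vil-CREPTKO replicate 2 for the markers. The part of these markers in the Cdkn2c level was not tested. No rule fixed beforehand which marker list was set beside which gene.

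Cdkn2d (ENSMUSG00000096472, chromosome 9, 21288410 to 21291407, minus strand), which encodes p19Ink4d, was at 10.9 and 10.3 CPM in WT and at 9.04 and 8.27 CPM in Vil-CREPTKO. The groups did not overlap and the distance between them was small. The log2 fold change was -0.29 (SE 0.18, 95% interval -0.69 to 0.11), and the 4 log2 ratios of single libraries ran from -0.40 to -0.19.

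Among the 7 tested genes, 1 was called (adjusted p under 0.05 and an absolute log2 fold change over 1), namely Cdkn3, while 1.64% of all tested genes were called, 1.34% lower and 0.297% higher. In 3 of the 7, Cdkn3, Cdkn1c and Cdkn2d, the groups did not overlap, all 3 with the lower values in Vil-CREPTKO, and the groups did not overlap in 45.1% of all tested genes, 24.2% with lower and 21% with higher values in Vil-CREPTKO. A negative log2 fold change was found in 5 of the 7 and in 50.9% of all tested genes. Because this contrast was used to choose Cdkn3, nothing is read from these counts.

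**Figure D2:**
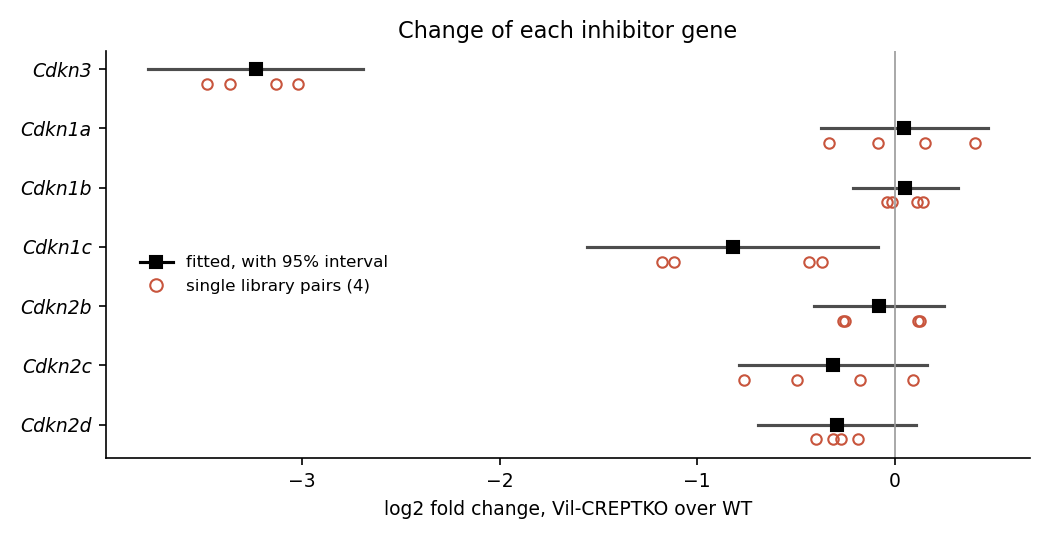
Log2 fold change of Vil-CREPTKO over WT for the 7 tested genes, with the fitted value and its 95% interval as squares and lines, and the ratios of the 4 single library pairs as open circles. Cdkn3 lies at -3.23, the pairs of Cdkn1c fall into a set near -0.40 and a set near -1.15 according to the WT library, and the intervals of Cdkn1a, Cdkn1b, Cdkn2b, Cdkn2c and Cdkn2d include 0.

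Levels of different genes were compared per length, as CPM per kilobase of merged exons. In WT, Cdkn1a (47.1 ± 5.82, SD, n = 2) and Cdkn2b (42.6 ± 7.85, SD, n = 2) were highest and overlapped. They were followed by Cdkn1b (17.9 ± 0.228), Cdkn2c (7.88 ± 1.03), Cdkn2d (6.73 ± 0.283), Cdkn3 (4.79 ± 0.267), Cdkn1c (1.93 ± 0.693) and Cdkn2a (0.136 ± 0.0035), each separated from the next in both WT libraries. In Vil-CREPTKO the order was the same except that Cdkn3, at 0.507 ± 0.0852, lay below Cdkn1c, at 1.09 ± 0.0343, in both libraries. There Cdkn2c (6.35 ± 1.81) and Cdkn2d (5.50 ± 0.348) overlapped. The length used changed the order around Cdkn1a and Cdkn3. On the principal transcript the WT levels of Cdkn2a (0.178) and Cdkn2d (7.45) also moved by more than their SD. On its principal transcript Cdkn1a was at 80.4 ± 9.94 CPM per kilobase in WT and no longer overlapped Cdkn2b, at 42.6 ± 7.85. Merged exons of Cdkn3 cover 2371 bp, whereas its principal transcript has 917 bp. On that length Cdkn3 stood in place 4 in WT, at 12.4 CPM per kilobase, and in place 6 in Vil-CREPTKO, at 1.31. There its mean lay above that of Cdkn1c, at 1.17 on its own principal transcript, so the change of order depended on the length used.

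The sum of the 7 inhibitor genes, on the same per-length scale of merged exons, was 114 and 135 in WT against 127 and 115 in Vil-CREPTKO, with both Vil-CREPTKO libraries inside the WT range. The Cip/Kip family supplied 54.9% and 53% of it in WT and 59.6% and 53.4% in Vil-CREPTKO. Cdkn1a alone supplied 37.8% and 38.0% in WT against 44.9% and 35.4% in Vil-CREPTKO. These sums and shares were not computed on the principal transcripts, on which the Cdkn1a level was higher. The inhibitor transcripts of these crypts thus came mostly from Cdkn1a and Cdkn2b in all 4 libraries.

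The genes around the inhibitors were taken from 10 lists with 147 genes, of which 143 were tested. At an adjusted p under 0.05 in edgeR's quasi-likelihood test, 4 list genes were lower and 4 were higher, against 2.29% lower and 0.423% higher among all genes tested. The median log2 fold change over all genes was -0.006. An unadjusted p under 0.05 in edgeR was found for 14.3% of all genes tested.

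The list of CDKs and cyclins also holds the CDK-activating complex of Cdk7, Ccnh and Mnat1. In edgeR 4 of its 16 genes were at an unadjusted p under 0.05. After adjustment 1 was lower, Cdk4, the kinase held by all INK4 proteins. It was at 147 and 136 CPM in WT and at 77.9 and 94.1 CPM in Vil-CREPTKO, with no overlap. Its log2 fold change of -0.72 ± 0.14 (SE) had an adjusted p of 0.032 in edgeR. The adjusted p rose to 0.0755 without WT replicate 1 and to 0.0842 without Vil-CREPTKO replicate 1, and the 12 settings spanned 0.000326 to 0.0842. The other kinases had log2 fold changes of -0.12 for Cdk6 (adjusted p 0.815), -0.31 for Cdk2, the substrate of the Cdkn3 phosphatase (adjusted p 0.297), and -0.05 for Cdk1, the kinase of mitosis (adjusted p 0.929). The D-type cyclins Ccnd1, Ccnd2 and Ccnd3, which pair with Cdk4, were at 0.32, -0.50 and -0.08. None passed in edgeR (adjusted p 0.506, 0.150 and 0.873). In DESeq2 2 genes of the list were lower, Cdk4 and Ccnd2 (adjusted p 0.0456 for Ccnd2). Ccnd2 was at 227 and 241 CPM in WT and at 151 and 180 CPM in Vil-CREPTKO, with no overlap. Ccne1, Ccna2 and Ccnb1, the cyclins of later phases, were at 0.06, -0.07 and 0.04. The median of the list was -0.06, and it was 0.10 with Vil-CREPTKO replicate 1 left out and -0.25 with replicate 2 left out.

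None of the 9 enzymes that set CDK phosphorylation passed the edgeR test, with 1 at an unadjusted p under 0.05 and 1 passing in DESeq2. That gene was Cdc25b, a phosphatase that activates CDKs, singled out here after its values were seen. It had 1275 and 1215 counts in WT against 464 and 843 in Vil-CREPTKO, and its log2 fold change of -0.83 ± 0.22 (SE) had an adjusted p of 0.0964 in edgeR. Without Vil-CREPTKO replicate 2 its adjusted p was 0.00489, within a range of 0.000531 to 0.217 over the settings.

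The RB and E2F genes, through which CDK inhibition acts on transcription, held no gene that passed among 13 tested in edgeR, with 1 at an unadjusted p under 0.05 and 0 in DESeq2. Rb1, the retinoblastoma gene, was at 0.39 (SE 0.17, adjusted p 0.351) and E2f1, an activating E2F, at -0.47 (SE 0.19, adjusted p 0.293), both as log2 fold changes. The DREAM and MuvB complex, which represses late cell cycle genes in resting cells and activates them in cycling cells, had 0 of 7 genes past the test in edgeR and in DESeq2, and 0 at an unadjusted p under 0.05. Foxm1, the activator of late cell cycle genes that joins MuvB, was at 34.2 and 33.7 CPM in WT and at 20.5 and 31.7 CPM in Vil-CREPTKO, with a log2 fold change of -0.38 (SE 0.20, adjusted p 0.441). Its adjusted p was 0.0369 without Vil-CREPTKO replicate 2, the lowest of all settings, which reached 0.898.

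The late cell cycle genes, with which Cdkn3 is known to be expressed, held 0 of 25 past the test in edgeR and in DESeq2, and 1 at an unadjusted p under 0.05. Their median log2 fold change was -0.07. It was 0.11 without Vil-CREPTKO replicate 1, -0.25 without Vil-CREPTKO replicate 2, and 0.02 without WT replicate 2, so that its sign depended on the library left out. Mki67 was at 308 and 332 CPM in WT and at 272 and 345 CPM in Vil-CREPTKO, which gave a log2 change of -0.05 (SE 0.17, adjusted p 0.934). The groups overlapped in Mki67.

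Of the genes for the turnover of CDK inhibitors, 1 of 12 tested fell, the only 1 at an unadjusted p under 0.05 in edgeR. Rnf123, which encodes the ubiquitin ligase KPC1 that targets p27, was at 51.6 and 54.6 CPM in WT and at 34.4 and 32.5 CPM in Vil-CREPTKO, which gave a log2 change of -0.67 ± 0.12 (SE), with an adjusted p of 0.0251 in edgeR. Without WT replicate 2 its adjusted p was 0.097, the highest of all settings, which started at 0.000775. Skp2, the better known p27 ligase component, is listed at 0 in all 4 libraries, and whether this 0 comes from expression or from the counting was not tested. Cks1b, the partner of Skp2, was at 0.12 (SE 0.19, adjusted p 0.846).

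**Figure D3:**
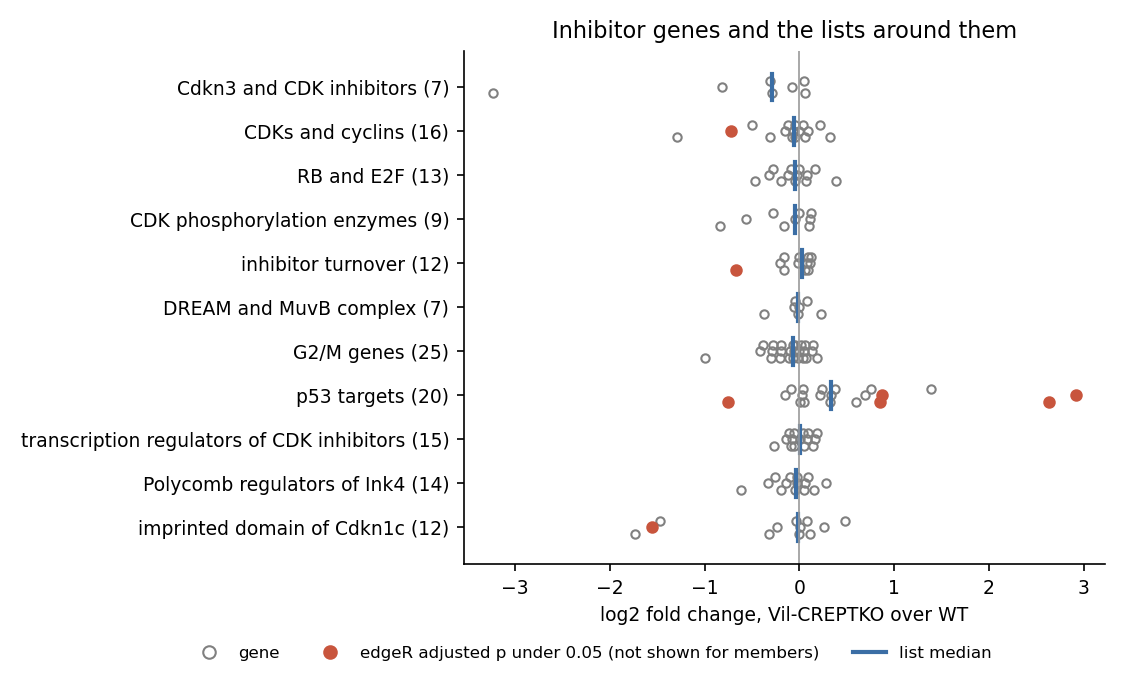
Log2 fold change of Vil-CREPTKO over WT for every tested gene of the inhibitor set and of the 10 lists around it, with the number tested in brackets, the list median as a blue bar and genes with an edgeR adjusted p under 0.05 filled red (not marked for the inhibitor set). Medians of the 10 lists lie between -0.07 and 0.03 except for the p53 targets (0.33). The inhibitor set (-0.29) includes Cdkn3, which was selected on its decrease in this contrast, so nothing is read from its median.

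Among the p53 targets other than Cdkn1a, Phlda3, Eda2r, Ccng1 and Zmat3 rose and Btg2 fell. Of 20 genes, 4 were higher and 1 lower at an adjusted p under 0.05 in edgeR (6 and 1 in DESeq2). In edgeR 11 were at an unadjusted p under 0.05, against 14.3% of all tested genes. A positive log2 fold change was found in 17, while 50.9% of all tested genes had a negative one, and the median was 0.33. Phlda3, a repressor of AKT signalling, went from 0.842 and 0.955 CPM in WT to 5.91 and 7.68 CPM in Vil-CREPTKO, which gave a log2 change of 2.92 ± 0.29 (SE), with an adjusted p of 0.0031 in edgeR. Eda2r, a receptor of the tumour necrosis factor family, went from 1.23 and 1.63 CPM to 7.32 and 10.4 CPM, a log2 fold change of 2.63 ± 0.29 (SE), with an adjusted p of 0.0043 in edgeR. In both genes the lowest Vil-CREPTKO library was well above the highest WT library.

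Ccng1, which encodes cyclin G1, was at 65.2 and 72.2 CPM in WT and at 130 and 122 CPM in Vil-CREPTKO (log2 difference 0.87 ± 0.12 SE, adjusted p 0.0093 in edgeR). Zmat3, a zinc finger RNA-binding protein, was at 16.9 and 17.1 CPM in WT and at 27.9 and 33.4 CPM in Vil-CREPTKO (log2 difference 0.85 ± 0.15 SE, adjusted p 0.0233 in edgeR). Btg2, an antiproliferative gene, was the only one lower, at 69.3 and 81.2 CPM in WT and 46.3 and 42.9 CPM in Vil-CREPTKO (log2 difference -0.75 ± 0.13 SE, adjusted p 0.0208 in edgeR), and its adjusted p was 0.080 without WT replicate 2, the highest of all settings, which started at 7.81e-05. Mdm2, the ubiquitin ligase of p53, was at 0.34 (SE 0.14, adjusted p 0.330), and Trp53, the gene for p53 itself, at 0.04 (SE 0.14, adjusted p 0.934), both as log2 fold changes. Cdkn1a, with a log2 fold change of 0.05 (95% interval -0.37 to 0.47), lay below the intervals of Phlda3, Eda2r, Ccng1 and Zmat3 and inside the range of the list. This difference between Cdkn1a and the other targets was not tested.

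**Figure D4:**
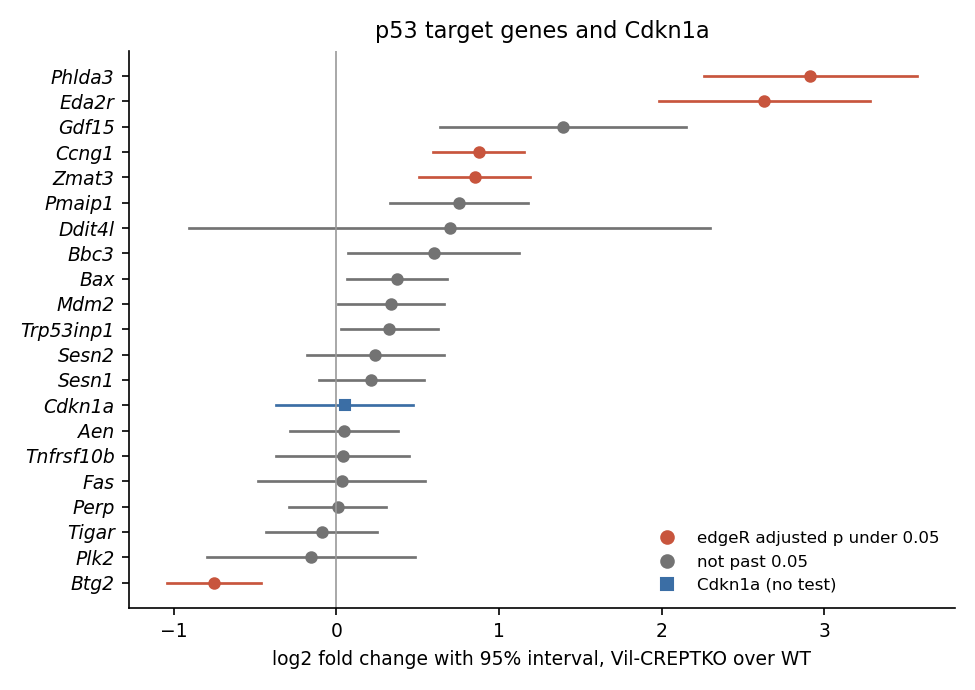
Log2 fold change with its 95% interval for 20 p53 target genes and Cdkn1a (blue square), sorted by value, with genes at an edgeR adjusted p under 0.05 in red. Phlda3 (2.92) and Eda2r (2.63) stand apart at the top, Btg2 (-0.75) at the bottom, and Cdkn1a (0.05) lies near 0.

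None of 15 tested transcription regulators of CDK inhibitors passed in edgeR or DESeq2, and 0 were at an unadjusted p under 0.05. Their log2 fold changes ran from -0.27 to 0.18. A list of 14 genes covered Polycomb proteins, which silence the Cdkn2a and Cdkn2b region, and Kdm6b, a demethylase that opposes them. Of these, 0 passed in edgeR, 1 was at an unadjusted p under 0.05 and 1 passed in DESeq2. Bmi1, a Polycomb gene, was at -0.10 (SE 0.15, adjusted p 0.838).

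In the imprinted domain around Cdkn1c, 1 of 12 tested genes fell, and 2 were at an unadjusted p under 0.05 in edgeR. Trpm5, a cation channel of tuft cells that was also in the tuft marker list, was at 52.6 and 70.3 CPM in WT and at 21.1 and 20.7 CPM in Vil-CREPTKO, which gave a log2 change of -1.56 ± 0.16 (SE), with an adjusted p of 0.0035 in edgeR. Kcnq1ot1, the paternally expressed RNA that silences Cdkn1c on its own chromosome copy, was at 4.15 and 2.54 CPM in WT and at 3.20 and 6.17 CPM in Vil-CREPTKO, with overlapping groups and a log2 fold change of 0.49 (SE 0.37, adjusted p 0.632). It lies antisense to Kcnq1, and whether the counting used strand is not given in the sources used here. Phlda2 and Slc22a18, imprinted like Cdkn1c, were at -0.03 (adjusted p 0.987) and 0.12 (adjusted p 0.821). Tnfrsf23 had the largest decrease of the list (log2 fold change -1.73, SE 0.61, adjusted p 0.219 in edgeR). Its counts were 50 and 181 in WT against 36 and 28 in Vil-CREPTKO, with WT replicate 2 far above the other libraries. Tnfrsf26, a neighbour of Cdkn1c, had 21 and 12 counts against 4 and 3 (-2.07, adjusted p 0.272 in edgeR). Both were singled out after their values were seen.

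Genes that start within 250 kb of the start of a member were followed to see whether the decrease of Cdkn3 extended along the chromosome. Around Cdkn3, 7 of 22 annotated genes were tested and 0 passed in edgeR, with a median log2 fold change of 0.29. All 7 start downstream of the Cdkn3 start, at 27.1 to 122 kb. The annotated genes that start upstream within 250 kb had 0 counts in all 4 libraries, so that side was not measured. Cnih1, Gmfb and Cgrrf1, the well expressed protein-coding neighbours, had 3145 and 3287, 4931 and 5459, and 845 and 819 counts in WT. Their log2 fold changes were 0.20 (SE 0.12), 0.18 (SE 0.13) and 0.29 (SE 0.16), with adjusted p of 0.546, 0.621 and 0.461. The other 4, at 2 to 50 counts per library, were Samd4 at 1.22, Gm48933 at 0.83, Gm48949 at 0.31 and Gm10101 at -0.59 (adjusted p 0.605, 0.624, 0.925 and 0.665). None of the 7 passed as lower. Gm10101, the only 1 with a negative log2 fold change, had 50 and 39 counts in WT against 20 and 35 in Vil-CREPTKO.

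Over all members, 55 neighbours were tested, of which 2 were lower and 1 higher. Both lower genes were neighbours of Cdkn2d. Atg4d, an autophagy protease whose gene starts 26.1 kb from Cdkn2d, was at 3455 and 4008 counts in WT against 1316 and 1550 in Vil-CREPTKO, which gave a log2 change of -1.27 ± 0.13 (SE), with an adjusted p of 0.0038 in edgeR. Tmed1, a cargo receptor of the secretory pathway whose gene starts at -219 kb, was at 366 and 335 counts in WT against 156 and 152 in Vil-CREPTKO, which gave a log2 change of -1.06 ± 0.22 (SE), with an adjusted p of 0.0466 in edgeR, and each library left out in turn took its adjusted p above 0.05 (0.0523 to 0.0936, with 0.00287 as the lowest over all settings). The third gene, Pnpla1, a lipid enzyme whose gene starts at -233 kb, upstream of Cdkn1a, was at 125 and 104 counts in WT against 236 and 356 in Vil-CREPTKO, which gave a log2 change of 1.47 ± 0.26 (SE), with an adjusted p of 0.0251 in edgeR. Without Vil-CREPTKO replicate 2 its adjusted p was 0.0581, and 4.61e-05 was the lowest over all settings. Mtap, the neighbour of both Cdkn2a and Cdkn2b, was at 0.35 (SE 0.15, adjusted p 0.340).

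**Figure D5:**
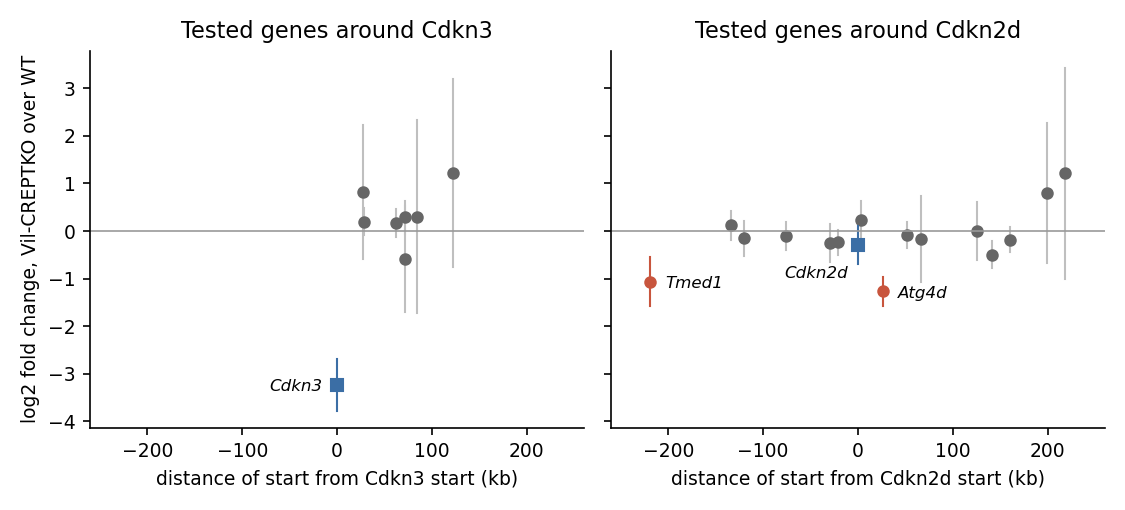
Log2 fold change with its 95% interval for tested genes within 250 kb of Cdkn3 (left) and of Cdkn2d (right), plotted by the distance of their start from the start of the member, positive in its direction of transcription. Cdkn3 (blue square) lies at -3.23 and its 7 neighbours between -0.59 and 1.22, while Atg4d (-1.27) and Tmed1 (-1.06), in red, are lower beside a Cdkn2d of -0.29.

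The profile of Cdkn3 over the 4 libraries, as log2 CPM centred on its mean, was closest to those of Gm8979, Zfp612, Novel00367, Lrrc75b and Gvin1 among those 12171 genes. The Euclidean distances were 0.43, 0.70, 0.80, 0.82 and 0.83. Gm8979, a pseudogene on chromosome 7, was at 808 and 701 CPM in WT and 98.8 and 96.9 CPM in Vil-CREPTKO, and Gvin1, a GTPase gene on the same chromosome, was at 34.1 and 21.7 CPM against 3.93 and 2.75 CPM. Both lie close together on its minus strand, at 106076751 to 106084046 and 106156556 to 106215326, so they may not be separate matches. Whether they share reads was not tested. Zfp612, a zinc finger gene on chromosome 8, was at 7.97 and 6.5 CPM against 0.460 and 1.14 CPM. Lrrc75b on chromosome 10 was at 3.25 and 4.77 CPM against 0.690 and 0.611 CPM, and the unnamed locus Novel00367 at 7.52 and 5.77 CPM against 1.08 and 0.733 CPM. All 5 were several-fold lower in both Vil-CREPTKO libraries, which is what the measure of likeness selects, and none belongs to the lists above. Near copies of these 5 genes were not searched for.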

How the data were processed

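RNA-seq was performed on 2 WT and 2 Vil-CREPTKO crypt samples, grouped by their labels. The deposited values were whole-number read counts per gene, 1 column per library, made by the authors with CASAVA 1.8, Bowtie2 and RSEM on GRCm38.p6 according to the study's methods and the submitters' processing notes. The versions of the latter tools, the annotation and the strand setting are not given in the sources used here, so reads of a gene and of an antisense partner cannot be told apart. Of 53845 rows, 53360 (99.1%) matched GENCODE M21, which gave symbols, GRCm38 coordinates and exon lengths, and 380 were unnamed loci.

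Counts were analysed with edgeR 4.0.16 in R 4.3.3: filterByExpr, TMM scaling, glmQLFit and glmQLFTest with the group as the only term, two-sided, and Benjamini-Hochberg adjustment over all 17504 genes tested. The fit was checked on simulated counts. CPM used TMM-scaled library sizes over tested genes. SE is the log2 fold change divided by the square root of F. The biological coefficient of variation was 0.188, so for genes with high counts the spread between libraries, more than counting error, set the precision. This does not hold for genes at a few counts, such as Cdkn2a. The floor of 3 counts covers counting error only. Libraries of a group differed by 49.8 (WT) and 70.1 (Vil-CREPTKO) chi-square units per gene, so none was a repeat of another. Sequence copies were searched with blastn 2.17.0.

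The members, the gene lists and the rules were chosen with earlier results of these data known. Named genes were the members, Rprd1b, list genes and neighbours with an adjusted p under 0.05, list genes acting directly on a member, all tested neighbours of Cdkn3 and the 5 genes most like it. Alternatives were DESeq2 1.42.0 (the tool of the study), scaling by RLE, by the upper quartile or by library size alone, dropping the low-count filter or raising it to 10 counts per library, dropping the fold change threshold, a replicate block, and leaving out each library. An enterocyte marker of the original list is not reported here and was left out of the marker sum.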

Additional observations from a re-analysis of the deposited data

How the results depend on the processing

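The log2 fold change of Cdkn3 ran from -3.42 to -3.08 when a library was left out and from -3.32 to -3.20 under the other alternatives. Over all genes, the 52 called higher became 163 without the low-count filter, 89 with DESeq2 and 62 to 135 when a library was left out, with 121 and 87 on leaving out WT replicates 1 and 2 and 135 on leaving out Vil-CREPTKO replicate 2. The 235 called lower became 379 with library-size scaling, 450 without the filter and 400 without the fold change threshold, and 225 to 308 when a library was left out. The 4 list genes that were lower became 7 without the filter, 7 with DESeq2 and 2 to 7 when a library was left out, with the extremes on leaving out WT replicate 2 (2) and Vil-CREPTKO replicate 2 (7). The 3 neighbours became 5 without the filter and 1 to 3 when a library was left out, with 1 without Vil-CREPTKO replicate 2. Apart from fewer samples, more genes tested or a looser threshold where that is the setting, the cause was not tested. Among members, library-size scaling, which moved the median of all genes by -0.09, gave -0.04 for Cdkn1b, -0.05 for Cdkn1a and -0.39 for Cdkn2d. The levels per kilobase of Cdkn3 and of the other members were also computed on the principal transcript, an alternative chosen after seeing the data.

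The labels number replicates 1 and 2 in both groups without saying that a number marks a shared litter or day. Deviations of same-numbered libraries correlated at 0.0277, so the numbers were not used for pairing. With the replicate block, 269 genes were called lower and 67 higher, 5 list genes were lower and 5 higher, 3 neighbours passed, and Cdkn3 was at -3.24. With 2 libraries per group, p-values measure the spread between these libraries only, and the 95% intervals of the Cdkn2c and Cdkn2d differences include 0.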

Other observations

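Of the genes around the inhibitors, a pair in the G2/M list varied widely within groups. They were chosen after their values were seen. Kif11, a mitotic kinesin, had counts of 150 and 462 in WT against 99 and 446 in Vil-CREPTKO, and Nek2, a centrosomal kinase, had counts of 343 and 45 in WT against 33 and 149 in Vil-CREPTKO. Neither passed the edgeR test (adjusted p 0.964 and 0.666).

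Stromal markers (Col1a1, Col1a2, Col3a1, Pdgfra and Dcn) summed to 5.07 and 5.79 CPM in WT and to 17.3 and 2.04 CPM in Vil-CREPTKO, and immune markers (Ptprc, Cd3e, Cd3g, Cd8a, Cd79a and Itgae) to 315 and 218 CPM in WT and to 225 and 178 CPM in Vil-CREPTKO.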
